A study of Mus musculus with 24 samples.

Results

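The comparison described here sets MEF2C binding in cells treated with siJunb against cells treated with siH1f0, at day 1 of cardiac reprogramming. It holds 6 of the 24 samples of the series, chosen by antibody, siRNA and day: the 3 MEF2C peak lists of siJunb and the 3 of siH1f0, on chromosomes 1 to 19 and X. CUT&RUN, an assay in which an antibody guides a nuclease to the bound protein so that the DNA next to it can be sequenced, was applied to the mouse embryonic fibroblast line iMGT-Myh6-eGFP-MEF. All cells of both groups carried Mef2c, Gata4 and Tbx5 under doxycycline control together with a Myh6-eGFP reporter, were plated at 300000 per well for the siRNA, received 1 µg/mL doxycycline a day later and were collected at day 1, with about 250000 cells per condition. The siJunb group was directed against Junb and the siH1f0 group against H1f0, which encodes the linker histone H1.0. RNA or protein of the targeted genes was not analysed here, so neither knockdown was checked. The samples come from 1 line, and the labels call replicates biological but do not say which step was repeated, so the p-values here rest on a spread between samples that may be technical. Induced and endogenous MEF2C cannot be told apart here.

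MEF2C is a MADS-box transcription factor that, with GATA4 and TBX5, can move fibroblasts towards a cardiomyocyte-like state, and it binds AT-rich sites at muscle genes. JUNB belongs to the AP-1 family, whose dimers bind TGANTCA sites and are abundant at fibroblast enhancers. H1.0 is a linker histone that sits where DNA enters and leaves the nucleosome and is linked with compact chromatin, and H3K9me3 marks heterochromatin. With both knockdowns in the same cells and at the same day, the comparison asks where MEF2C bound when JUNB rather than H1.0 was targeted.

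MEF2C regions that recurred in all 3 siH1f0 lists and in no siJunb list numbered 1101, against 100 in the opposite pattern. They made up 1.48% and 0.134% of the 74557 regions obtained by merging overlapping peaks of the 6 lists. The 1101 regions held promoters of 206 genes. Among them were Ldb3, which encodes a Z-disc protein, and Cacna1c, which encodes the pore of the cardiac L-type calcium channel. Hey2, a transcription factor of the ventricle, and Tbx18, a transcription factor of the epicardium, were others. They were picked from the 206 as members of the gene lists used here. By another rule, a region within 5 kb of a gene end, 1.06% of the 282 listed genes were bound in all siH1f0 and no siJunb lists. This was close to the 0.92% of all protein-coding genes, and Hey2 was not among them, as siJunb replicate 2 also held it. With peak lists cut to equal length by total signal, the difference in lists by this rule was 0 for Cacna1c and Hey2. Of the 100 regions, 88% were in neither siControl list, against 66.2% of all regions, and 19% lay in H3K9me3 sequence, against 5.52%. All regions are not matched for recurrence, as 59.9% of them were in only 1 list. Of the regions in all 6 lists, 0.311% were in neither siControl list. Compared by list, the share on H3K9me3 differed by 2.14 percentage points (exact permutation p = 0.2, adjusted p = 0.667 over 10 measures). The order of the 2 counts turned when every list was cut to the same covered length, to 35 and 71. Without siJunb replicate 1, the shortest list, the counts were 1392 and 2437. There, siJunb-only meant only the 2 siJunb lists left, while siH1f0-only still meant all 3 siH1f0 lists. By the rule of at least 2 of 3 lists and none of the other group, they were 4578 and 2818.

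Promoter sequences of 5 genes whose start region fell in these 2 sets are shown, because they carry the motifs looked for or belong to the heart genes named above. They were chosen after their values were seen. Each runs from 250 bases before to 50 bases after the start site, is read 5′ to 3′ on the gene's strand and comes from RefSeq on GRCm38.p6, the assembly of mm10. Capitals mark every match, on either strand, to 1 of 5 motifs. These were the MEF2 motif, the CArG box by name, and the AP-1 motif spelled TGANTCA. The remaining motifs were a GATA motif with the letters AGATAA and the GC box, which reads GGGCGG. The windows were chr14:34588632-34588931 for Ldb3 and chr10:30842734-30843033 for Hey2, both on the minus strand. They were chr3:32817376-32817675 for Usp13 (plus strand), chr2:13544615-13544914 for Trdmt1 (minus strand) and chr9:122902998-122903297 for Zfp660 (plus strand).
Ldb3: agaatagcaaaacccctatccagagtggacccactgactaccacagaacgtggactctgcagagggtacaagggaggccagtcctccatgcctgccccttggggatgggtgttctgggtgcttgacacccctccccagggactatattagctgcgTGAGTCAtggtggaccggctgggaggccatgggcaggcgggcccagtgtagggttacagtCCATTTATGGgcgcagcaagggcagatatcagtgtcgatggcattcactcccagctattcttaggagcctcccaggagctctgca
Hey2: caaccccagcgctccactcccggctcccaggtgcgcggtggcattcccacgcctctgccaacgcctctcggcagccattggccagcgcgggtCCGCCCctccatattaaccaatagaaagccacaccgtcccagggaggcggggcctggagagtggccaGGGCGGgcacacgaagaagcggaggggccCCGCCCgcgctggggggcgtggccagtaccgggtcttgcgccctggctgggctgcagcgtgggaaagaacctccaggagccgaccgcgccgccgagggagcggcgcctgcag
Usp13: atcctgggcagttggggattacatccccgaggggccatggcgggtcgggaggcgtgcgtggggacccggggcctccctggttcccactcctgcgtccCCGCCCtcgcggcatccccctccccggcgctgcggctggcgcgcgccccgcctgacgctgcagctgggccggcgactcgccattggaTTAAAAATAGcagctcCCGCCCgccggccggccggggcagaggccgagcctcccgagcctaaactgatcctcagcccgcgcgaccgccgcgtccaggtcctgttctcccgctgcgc
Trdmt1: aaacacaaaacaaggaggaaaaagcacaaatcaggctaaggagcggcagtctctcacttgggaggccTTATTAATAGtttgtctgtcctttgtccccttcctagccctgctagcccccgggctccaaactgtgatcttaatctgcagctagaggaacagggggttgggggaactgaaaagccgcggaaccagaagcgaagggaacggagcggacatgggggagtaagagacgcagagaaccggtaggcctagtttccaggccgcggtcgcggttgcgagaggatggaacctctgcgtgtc
Zfp660: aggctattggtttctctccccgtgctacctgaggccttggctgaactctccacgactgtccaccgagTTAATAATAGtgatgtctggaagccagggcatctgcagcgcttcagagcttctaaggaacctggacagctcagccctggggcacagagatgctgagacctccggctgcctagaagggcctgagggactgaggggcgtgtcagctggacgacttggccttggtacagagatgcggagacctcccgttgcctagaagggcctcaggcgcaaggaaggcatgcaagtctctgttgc

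The Ldb3 promoter, in a region of the siH1f0 lists only, held a TGAGTCA match 95 bases before the start site and the CArG match CCATTTATGG 35 bases before it. CArG boxes are the sites of SRF, another MADS-box factor. The Hey2 promoter, also siH1f0 only, held 3 GC boxes and none of the other 4 motifs. The promoters of Usp13 and Trdmt1 (siH1f0 only) held the MEF2 matches TTAAAAATAG and TTATTAATAG. The Zfp660 promoter, siJunb only, held TTAATAATAG. A match describes these letters and is no evidence of a bound site.

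Across the 232 promoter windows in siH1f0-only regions, 7 (3.02%) held a MEF2 match, against 3.11% of all 32619 windows. TGANTCA occurred in 12 of the 232 (5.17%), against 7.85% of all windows. AGATAA occurred in 6.47%, against 11.2%, and the CArG box in 2.16%, against 1.64%. GGGCGG occurred in 58.2%, against 35.9% of all windows and 63.3% of the 2223 windows in regions of all 6 lists. The 232 windows had a median GC content of 60% and all windows 53%. The letters at these promoters thus had more GC boxes and a higher GC content than all promoters, and fewer AGATAA and TGANTCA matches. Windows in regions of all 6 lists differed in the same directions, with AGATAA in 6.70%, TGANTCA in 6.61% and a median GC content of 60.7%. The siJunb-only regions held 15 windows, of which 1 had a MEF2 match and 0 had TGANTCA. No distal sequence was searched.

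In length, the lists differed more within the groups than between them. The siJunb replicates 1, 2 and 3 held 11717, 48997 and 25783 peaks, and the siH1f0 replicates held 22868, 35598 and 17856. Peaks covered 13.4, 77.4 and 59.2 Mb under siJunb and 56.4, 89.8 and 22.5 Mb under siH1f0. The siJunb group therefore had both the longest and the shortest list, and the 2 groups overlapped in both measures. In merged regions held per list, siJunb had 26126 ± 16846 and siH1f0 23626 ± 9225 (SD, n = 3 each), with a difference of 2500 regions (two-sided exact permutation p = 0.9). With 3 against 3 lists, 0.1 is the smallest p such a test can give, so none can pass 0.05.

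Peak maxima were lower in the 3 siJunb lists than in 2 of the 3 siH1f0 lists. The median peak maximum, in whole-number coverage that was not scaled to depth, was 7, 7 and 9 under siJunb and 17, 16 and 8 under siH1f0. The difference was -6 (exact permutation p = 0.2, adjusted p = 0.667 over 10 measures). siH1f0 replicate 3 lay inside the siJunb range. That list and siJunb replicate 1 share a naming series, as their deposited names start alike, and the other 4 lists share a second one. Within the first series the difference was -1, and within the second it was -8.5. The sources used here do not give the number of aligned reads.

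**Figure D1:**
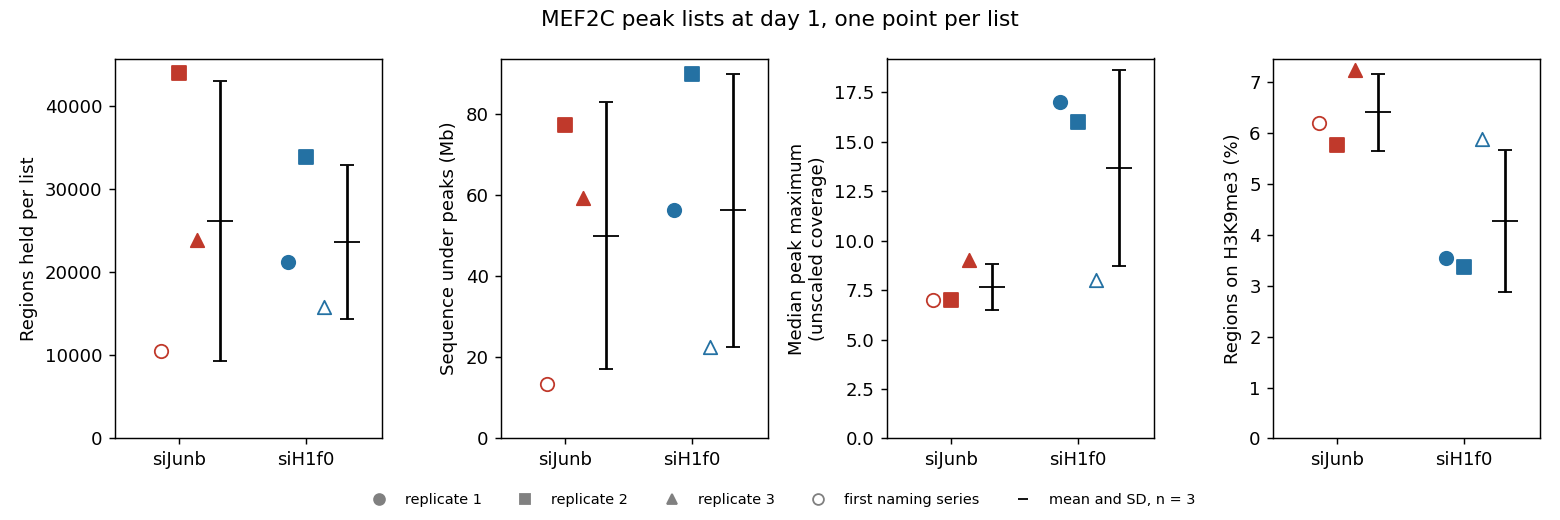
Each point is 1 MEF2C peak list at day 1 (siJunb red, siH1f0 blue, marker shape by replicate, open symbols for the first naming series), with the group mean and SD (n = 3) in black. The panels give merged regions held, Mb under peaks, median peak maximum in unscaled coverage, and the percentage of regions on H3K9me3. The groups overlap in all 4 panels.

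The siH1f0 lists resembled each other more than the siJunb lists did. Of the regions held by either list of a pair, siH1f0 pairs shared 32.4% to 52.9%, siJunb pairs 15.4% to 23.6% and pairs across the groups 20.4% to 32.5%. With all lists cut to the length of the shortest, the shares were 48.9% to 65.7% for siH1f0 pairs, 28.7% to 33.4% for siJunb pairs and 31.0% to 40.0% across. The pairs share lists, so these ranges are descriptions. In siJunb replicates 1, 2 and 3, 16.0%, 51.2% and 33.8% of regions occurred in no other list, against 5.31%, 26.0% and 15.5% in the siH1f0 lists. The difference was 18.1 percentage points (exact permutation p = 0.2, adjusted p = 0.667 over 10 measures).

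Regions common to all 3 lists of a group nested unevenly. The siH1f0 lists had 10829 such regions in common and the siJunb lists 5694, and 4825 regions belonged to both sets. These 4825 made up 84.7% of the siJunb set and 44.6% of the siH1f0 set. Since the same 4825 regions are divided by each set, the order of these 2 shares follows from the sizes of the sets. Of the siH1f0 set, 1957 regions were in 1 siJunb list, 2946 in 2 and 1101 in 0. Of the siJunb set, 141 were in 1 siH1f0 list, 628 in 2 and 100 in 0. At least 1 list of the other group thus held 98.2% of the siJunb set (5594 regions) and 89.8% of the siH1f0 set (9728 regions). With lists of equal covered length the order of the group-only counts turned, to 35 siH1f0-only and 71 siJunb-only regions.

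The regions missing under siJunb were mostly weak ones within the siH1f0 set, though not within the whole siH1f0 lists. In the weakest 20% of the siH1f0 set by siH1f0 signal, siJunb replicates 1, 2 and 3 held 22.8%, 62.7% and 46.7% of regions. In the strongest 20% they held 93.3%, 98.4% and 95.2%. The share in no siJunb list fell in these data from 23.5% in the weakest 20% to 0.231% in the strongest. Ranked over whole lists, the 1101 regions in no siJunb list had median percentiles of 46.8, 66.5 and 43.4 in siH1f0 replicates 1, 2 and 3. The medians over all regions were 51.4, 50.2 and 55.02. The 1101 regions thus lay below the median of all regions in siH1f0 replicates 1 and 3 and above it in replicate 2. In the siJunb set, 8.17% of the weakest 20% and 0.176% of the strongest were in no siH1f0 list. siJunb replicate 1, the list with the fewest peaks, held the least at each of the 5 levels of signal.

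**Figure D2:**
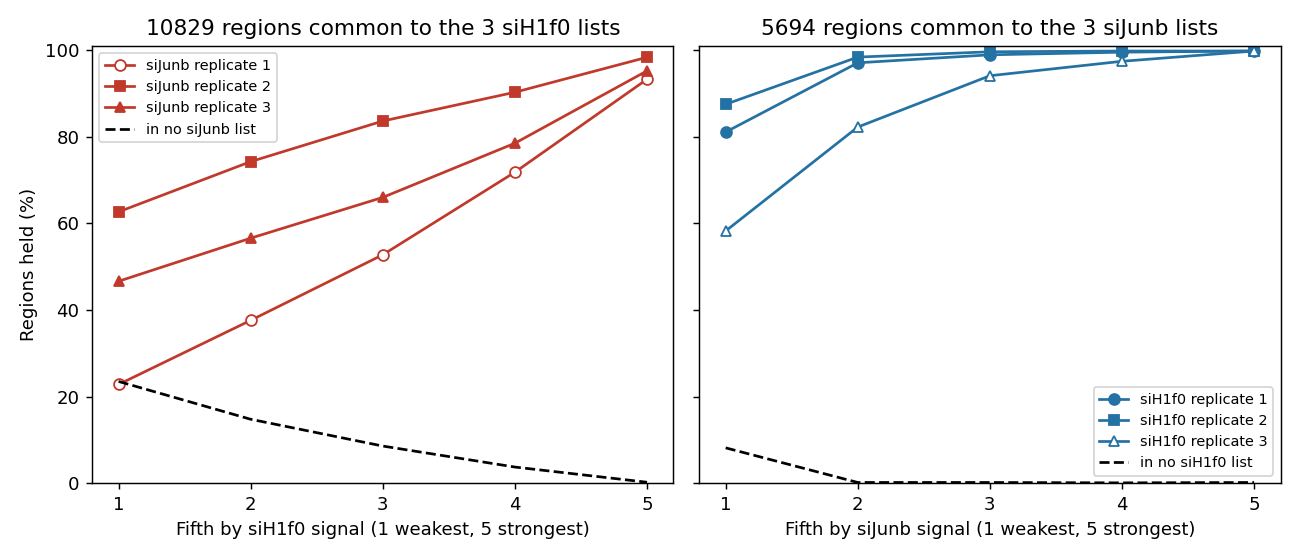
Left, percentage of the 10829 regions common to the siH1f0 lists that each siJunb list held, by siH1f0 signal in 5 classes of equal size (1 weakest, 5 strongest). Right, the same for the 5694 regions common to the siJunb lists and each siH1f0 list; dashed lines give the share in no list of the other group. The siJunb curves climb from 22.8% to 62.7% up to 93.3% to 98.4%, and the siH1f0 curves start at 58.3% to 87.5%.

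The 2 sets of group-only regions lay in different surroundings. Of the 1101 siH1f0-only regions, 86.3% were also in siControl replicate 2, 43.5% in siControl replicate 1 and 12.1% in neither. Of the 100 siJunb-only regions, 88 were in neither siControl list and 1 was in both. Over all 74557 regions, 32.5% were in siControl replicate 2, 15.7% in siControl replicate 1, 14.4% in both and 66.2% in neither. The siH1f0-only regions stood above all regions in their share seen in cells with neither knockdown, and the siJunb-only regions below. However, 59.9% of all regions were in only 1 list, while both sets were chosen for being in 3. Of the regions in all 6 lists, 0.311% were in neither siControl list. All regions are thus not a baseline matched for recurrence, and its part in these shares was not tested. Some 15.7% of the siH1f0-only and 12% of the siJunb-only regions held a promoter window, against 10.6% of all regions and 31.7% of the regions in all 6 lists.

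H3K9me3, taken as sequence in both day 1 siControl H3K9me3 lists, overlapped 19 siJunb-only regions (19%) and 19 siH1f0-only regions (1.73%). All regions stood at 5.52% and those in all 6 lists at 5.70%. H1.0, taken the same way, overlapped 26.0% of the siJunb-only regions, 6.81% of the siH1f0-only regions, 17.2% of those in all 6 lists and 8.48% of all regions. An overlap of 1 bp was enough, and the kinds of region differed in width. Median widths were 2763 bp for siJunb-only, 2323 bp for siH1f0-only, 4850 bp for all-list and 1899 bp for all regions. The part of width in these shares, and in those for promoters and siControl lists, was not tested. Regions are not replicates, so the lists carry the test. The share of a list's regions on H3K9me3 was 6.21%, 5.77% and 7.25% under siJunb and 3.55%, 3.37% and 5.88% under siH1f0. The 2 siH1f0 lists of the second naming series were lowest, and siH1f0 replicate 3 lay among the siJunb lists. The mean difference was 2.14 percentage points (exact permutation p = 0.2, adjusted p = 0.667 over 10 measures). It was 0.325 points within the first naming series and 3.05 within the second. For H1.0 the lists gave 14.7%, 9.13% and 12.8% under siJunb and 11.4%, 9.59% and 13.4% under siH1f0, a difference of 0.775 points (p = 0.8 by the same exact test).

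Within a naming series, the contrast in H3K9me3 was small in the first and wide in the second. Between the single lists of the first series, 5.68% of 4732 regions in the siJunb list only and 4.42% of 10955 in the siH1f0 list only lay on H3K9me3. Between the pairs of lists of the second series, 11.7% of 2656 and 1.63% of 4421 did. Regions of 1 list alone showed the same split by list: 9.43% of those in siH1f0 replicate 3 alone lay on H3K9me3, beside 1.69% and 2.03% in siH1f0 replicates 1 and 2 and 5.95% to 8.78% in the siJunb lists. The part of the naming series in the H3K9me3 difference was not tested.

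**Figure D3:**
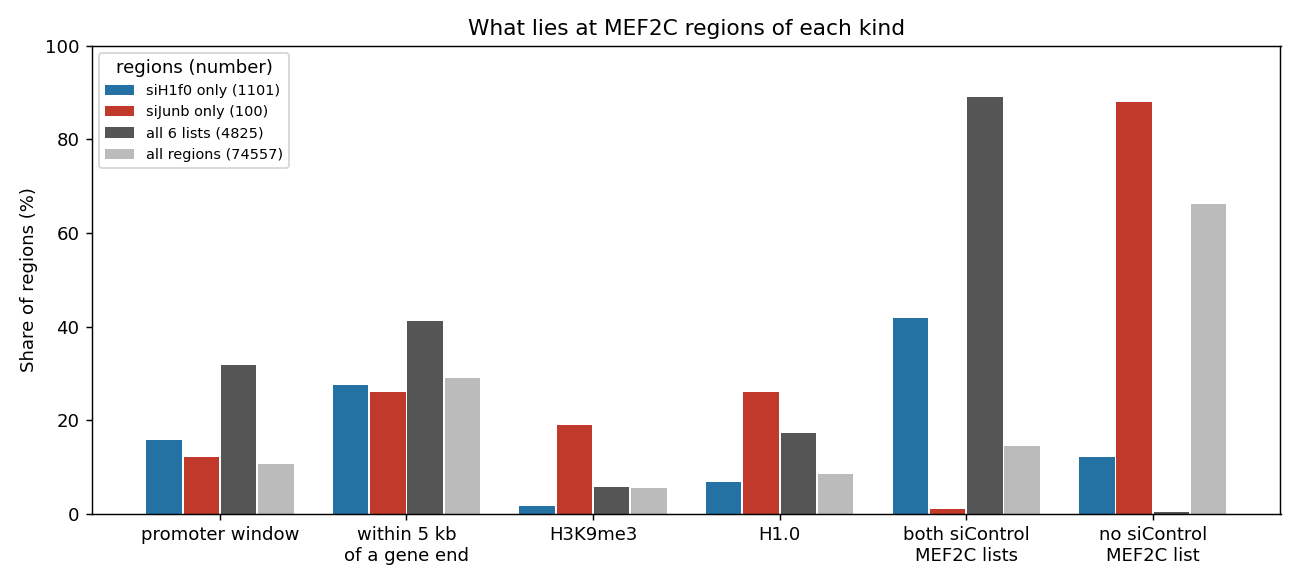
Bars give the percentage of regions with each feature for the 1101 siH1f0-only, 100 siJunb-only, 4825 all-list and 74557 total MEF2C regions. The siJunb-only regions stand highest for H3K9me3 (19%), H1.0 (26.0%) and absence from both siControl lists (88.0%).

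MEF2C peaks were spread over the chromosomes differently in the 2 groups, a pattern looked for after the data had been seen. Chromosome 5 held 12.6%, 15.9% and 18.9% of peaks in siJunb replicates 1, 2 and 3 and 9.97%, 10.4% and 12.1% in the siH1f0 replicates. Every siJunb list stood above every siH1f0 list, and the siControl lists stood at 10.2% and 9.67%. Chromosome 5 holds 5.87% of protein-coding genes. The group means were 15.8% ± 3.17 and 10.8% ± 1.16 (SD, n = 3 each; exact permutation p = 0.1, adjusted p = 0.2 over 20 chromosomes). In the first naming series the shares were 12.6% (siJunb replicate 1) and 12.1% (siH1f0 replicate 3), so the gap lay mainly in the second.

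Chromosome 2 also stood higher in every siJunb list, at 11.3%, 11.96% and 12.9% against 9.98%, 10.5% and 10.8%. Chromosome 8 was the other of 3 chromosomes without overlap in this direction. Chromosomes 1, 3, 6, 7, 13, 14 and 18 were lower in every siJunb list, 7 in all. Chromosome 3 went from 4.20% ± 0.372 under siH1f0 to 2.54% ± 0.725 under siJunb (SD, n = 3 each). All 10 had an exact permutation p of 0.1 and an adjusted p of 0.2. Since the shares of a list add up to its whole, the 10 results are not independent. Chromosome 10 was 8.65%, 10.7% and 11.3% under siJunb and 7.45%, 7.92% and 8.74% under siH1f0, with overlap.

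Chromosomes 5, 2 and 10, the 3 with the most regions, together took 32.5%, 38.6% and 43.1% of siJunb peaks and 27.4%, 28.8% and 31.7% of siH1f0 peaks. In the first naming series the values were 32.5% (siJunb replicate 1) and 31.7% (siH1f0 replicate 3). The siControl lists had 27.7% and 27.0%. These chromosomes held 49 of the 100 siJunb-only regions, 27 of them on chromosome 5. They held 196 (17.8%) of the siH1f0-only regions, against 34.9% of all regions and 31.2% of those in all 6 lists. Without these chromosomes 905 siH1f0-only and 51 siJunb-only regions were left. Of those 51, 13 (25.5%) lay on H3K9me3, against 1.55% of the 905. The number of copies of each chromosome in these cells was not analysed here.

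**Figure D4:**
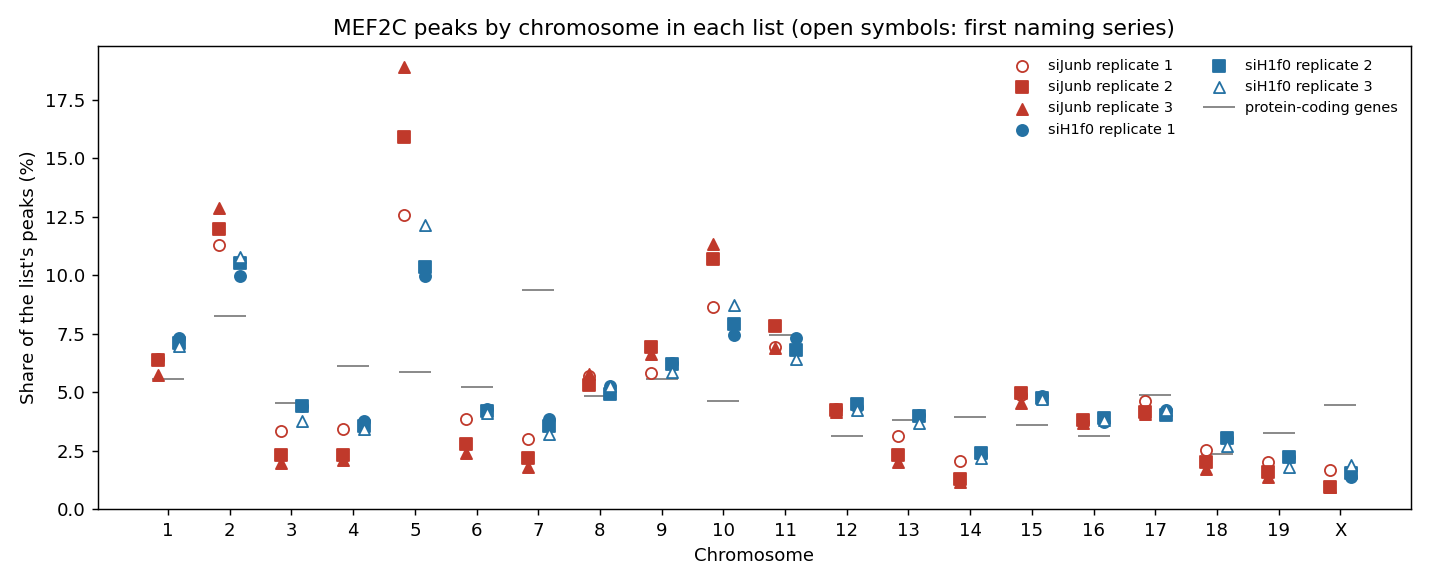
Percentage of each list's MEF2C peaks on each chromosome (siJunb red, siH1f0 blue, open symbols for the first naming series), with the percentage of protein-coding genes as grey dashes. On chromosome 5 the siJunb lists sit at 12.6% to 18.9% and the siH1f0 lists at 9.97% to 12.1%.

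The regions with the highest ranks among the siH1f0-only set were read by their nearest protein-coding gene. The first lay 3.98 kb from Lmcd1, a LIM-domain gene known for repressing GATA factors, at chr6:112266327-112269774. Its maxima were 44, 58 and 16 in the siH1f0 lists, which placed it in the 92.4, 94.6 and 90.5 percentile of those lists. Both siControl lists also held it, and no siJunb list did.

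The next was in Efna5, an ephrin ligand gene (chr17:62722542-62724186), with maxima of 43, 62 and 16. Others lay 4.36 kb from Itgb1, the gene of integrin beta 1 (31, 35 and 13), within Pappa2, a protease gene of the IGF pathway (47, 66 and 13), and within Dchs1, a cadherin gene (30, 37 and 14). The remaining 5 were near Akr1e1, Efna5 again, Aamp, Mettl8 and Tnc, the last a matrix glycoprotein gene 277 kb away. None of the 10 lay on H3K9me3 or H1.0, and all 10 were in at least 1 siControl list. With lists cut to equal length by total signal, 6 of the 10 stayed in all siH1f0 and no siJunb lists, and 10 did when cut by peak maximum. At equal covered length 0 did by total signal and 5 by peak maximum. By total signal the difference in lists was then 0 for 4 of them, at Aamp, Itgb1, Mettl8 and Pappa2.

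The regions with the highest ranks among the siJunb-only set were read in the same way. The first was a stretch of 495 bp at chr13:116192608-116193102, 105 kb from Isl1, a transcription factor gene of cardiac progenitors. Its maxima were 26, 57 and 76 in siJunb replicates 1, 2 and 3, at or above the 98.9 percentile of each list. With lists cut to equal length by total signal, 1 siJunb list still held this short region, and all 3 did when cut by peak maximum. A stretch of 1029 bp in Slc8a3, a sodium-calcium exchanger gene, had maxima of 10, 33 and 37 and lay on H1.0. One 6.39 kb from the vomeronasal receptor gene Vmn1r2 had 7, 19 and 30. These 3 were in no siControl list. The other 7 had maxima of 15 or lower and were nearest to 4932411N23Rik, E330021D16Rik, Lhx3, Sp140, Snrpe, Lypd6 and Sfswap. Of these, the regions of E330021D16Rik, Lhx3, Sp140 and Snrpe were also in no siControl list, and that of Sfswap was in both. The regions of E330021D16Rik and Sp140 lay on H3K9me3, the former on H1.0 as well. Of the 10, 2 stayed in all 3 siJunb lists at equal length by total signal and 8 by peak maximum. At equal covered length 1 stayed by total signal and 3 by peak maximum. No filter for repeat-rich or artefact-prone sequence was applied.

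At the 4825 regions held by all 6 lists, no region differed in rank by limma with Benjamini-Hochberg adjustment: 0% were called in each direction at 0.05. At an unadjusted p under 0.05, 241 were higher under siJunb and 270 under siH1f0. Counts stayed 0 in limma fits on total signal, with the naming series as a term, with the replicate block, without the lowest 20% and without any 1 list. On median-centred log2 maxima, limma called 4 higher under siJunb and 12 under siH1f0.

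The smallest adjusted limma p, 0.0672, belonged to a region in Phactr2, the gene of a phosphatase and actin regulator. Its maxima were 5, 7 and 7 under siJunb and 43, 62 and 13 under siH1f0. Among the 4825 regions these put it in the 6.02, 2.85 and 1.33 percentile under siJunb and the 66.5, 69.7 and 55.8 percentile under siH1f0. The next were Rad54l2, Sox4, a SOX transcription factor gene, and Rpl7, each with an adjusted limma p of 0.205. The Sox4 region, 98.7 kb from the gene, had maxima of 6, 9 and 8 against 41, 59 and 16. The other 6 of the first 10 in this direction were near Pdpk1, Zfat, Ptprm, Cxcl12, Frmd6 and Plcb4.

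In the siJunb direction the first was a region in Lama5, the gene of a basement-membrane laminin, with maxima of 7, 8 and 11 under siJunb and 8, 9 and 5 under siH1f0 (adjusted p = 0.248 from limma over all 4825 regions). In rank it went from a mean percentile of 17.6 under siJunb to 0.584 under siH1f0. Sparcl1, a matrix-associated glycoprotein gene 9.01 kb away, went from 25.8 to 2.13 (adjusted p = 0.267 from limma). The other 8 were near Wdr38, Klhl30, Lemd1, Alkbh4, Creld2, Apbb2, Preb and Atl2. None of the 20 regions passed the threshold.

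Genes were read as bound in a list when a region lay within 5 kb of either end. Of 21631 protein-coding genes, 199 (0.92%) were bound in all 3 siH1f0 and no siJunb list, and 59 (0.273%) in the opposite pattern. At least 2 more siH1f0 than siJunb lists held 1442 genes (6.67%), and at least 2 more siJunb lists held 650 (3%). A total of 2996 genes were bound in all 6 lists. With lists of equal covered length, 14 and 82 genes were group-only, so the order turned here as well. Without siJunb replicate 1 the counts were 268 and 495, where siJunb-only meant only the 2 siJunb lists left.

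Of 282 genes in the 18 lists of heart, fibroblast and other genes, 3 (1.06%) were bound in all siH1f0 and no siJunb lists, and 0 in the opposite pattern, which is near the 0.92% and 0.273% of all genes. In at least 2 more siH1f0 lists were 25 (8.87%), against 6.67% of all genes, and in at least 2 more siJunb lists 6 (2.13%), against 3%. Ldb3 had maxima of 17, 19 and 8 in the siH1f0 lists, in the 51.4, 60.9 and 55.02 percentile. Its region, chr14:34587947-34589918, covers the promoter printed above and was in no siControl list. Cacna1c had 18, 26 and 8, in a region (chr6:119196322-119198261) across one end of the gene. Tbx18 had 14, 23 and 11, in a region (chr9:87729967-87733628) over its start. Over the whole gene body with 5 kb on each side, all 3 siJunb lists held some region of Cacna1c and 1 held some region of Ldb3 and of Tbx18. Many of these gene differences changed with list length. With lists cut to equal length by total signal, the difference in lists was 0 for 8 of the 25 genes: Cacna1c, Gata4, Hey2, Mamstr, Xirp2, Fap, Twist1 and Tgfbr2. It was smaller for 8 others, among them Ldb3 and Tbx18, and as large for 9. Of the 6 genes in more siJunb lists it was 0 for 3, which were Tnni1, Flt1 and Slc17a7. In the stronger 50% of each list by total signal, Mamstr was in more siJunb than siH1f0 lists. At equal covered length the difference was 0 for 16 of the 25 and 5 of the 6. Maxima and shares are those of the full lists.

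**Figure D5:**
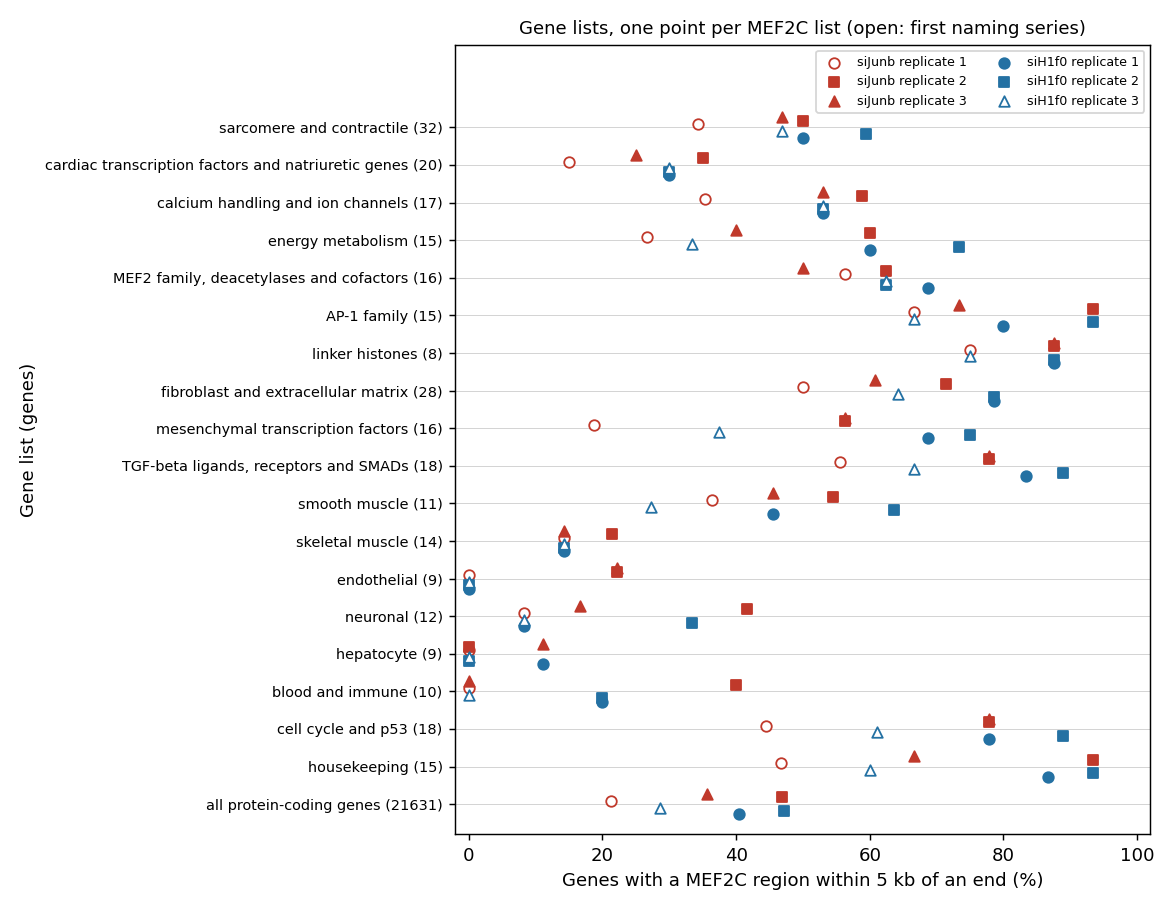
For each gene list (genes in it in brackets), points give the percentage of its genes with a MEF2C region within 5 kb of an end in each siJunb (red) and siH1f0 (blue) list, open symbols for the first naming series. In 0 of the 18 lists do the 2 groups stand fully apart.

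The contractile genes were bound in 34.4%, 50% and 46.9% of cases under siJunb and 50%, 59.4% and 46.9% under siH1f0, for 32 genes. Of these, 10 were bound in all 6 lists, among them Actc1, cardiac actin, whose maxima were 14, 20 and 26 under siJunb and 36, 46 and 14 under siH1f0. Csrp3, a Z-disc mechanosensor gene, had a region of maximum 8 in siJunb replicate 3 and of 37, 66 and 11 in the siH1f0 lists. Myl4, the atrial light chain gene, had 9 in siJunb replicate 2 and 27, 38 and 6 under siH1f0. Xirp2, an actin-binding repeat protein gene, was in 2 siH1f0 lists (10 and 17).

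Myl2 and Tnni1 were the contractile genes in at least 2 more siJunb lists. Myl2, the ventricular light chain gene, had 7 and 8 in siJunb replicates 2 and 3 and no region near its ends under siH1f0. Tnni1, slow skeletal troponin I, had 8 and 6 in the same lists. Ttn, the gene of the giant sarcomere spring, had 8 and 5 in siJunb replicates 2 and 3 against 41, 36 and 9, and at equal list length it was in all 3 siH1f0 and 0 siJunb lists. Tnnt2, cardiac troponin T, was in 1 siJunb list (6) and 2 siH1f0 lists (15 each), an order that turned at equal list length. Myh6, the alpha myosin gene behind the reporter, was in none of the 6 lists.

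Cardiac transcription factor and natriuretic genes were bound in 15%, 35% and 25% under siJunb and 30% in each siH1f0 list, for 20 genes. Gata4 had 16 and 14 in siH1f0 replicates 1 and 2. Hey2 had 6 in siJunb replicate 2 and 17, 16 and 7 under siH1f0, and its promoter lay in a region that only the siH1f0 lists held (chr10:30842030-30844693). Tbx5 had 13 and 17 in siJunb replicates 2 and 3 and 18, 22 and 14 under siH1f0. Mef2c had a region of maximum 14 near an end in siJunb replicate 1 only, with all 6 lists holding some region over its body. Since the cells carry inducible copies of Gata4, Tbx5 and Mef2c, binding at these genes and reads from the introduced copies cannot be told apart. Srf, Ankrd1, a stretch-responsive repressor gene, and Zfpm2, the gene of a GATA cofactor, were bound in all 6 lists. Nppa, atrial natriuretic peptide, was bound in 0.

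Calcium-handling and ion-channel genes stood at 35.3%, 58.8% and 52.9% under siJunb and 52.9% in each siH1f0 list, for 17 genes. Casq2, calsequestrin of the cardiac store, was in 2 siH1f0 lists (9 and 13). Camk2d, the main cardiac CaM kinase gene, had 9 in siJunb replicate 3 and 17, 15 and 10 under siH1f0. Kcnh2, a repolarising potassium channel gene, had 4, 7 and 8 under siJunb and 5 in siH1f0 replicate 3. Atp2a2, the store calcium pump gene, was bound in all 6 lists, and Ryr2, the release channel gene, in 0. Of 15 energy genes, Esrra and Idh3a were in at least 2 more siH1f0 lists.

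The 16 genes of the MEF2 family, deacetylases and cofactors were bound in 56.3%, 62.5% and 50% under siJunb and 68.8%, 62.5% and 62.5% under siH1f0. Mef2a had 9 in siJunb replicate 1 and 33, 24 and 7 under siH1f0. Mamstr, a MEF2 coactivator gene, had 8 in siJunb replicate 2 and 17, 26 and 14. Ncoa2, a p160 coactivator gene, was in 2 siH1f0 lists. Mef2d, Hdac5, Hdac7, Nr4a1, Cabin1 and Tead1 were bound in all 6 lists.

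AP-1 genes were among the most often bound, at 66.7%, 93.3% and 73.3% under siJunb and 80.0%, 93.3% and 66.7% under siH1f0, for 15 genes, and 8 were bound in all 6 lists. Fos had maxima of 17, 27 and 39 under siJunb and 92, 91 and 24 under siH1f0, between the 95.6 and 99.0 percentile of each list. Jun had 15, 37 and 24 against 56, 85 and 29. Junb itself had 7, 25 and 16 against 51, 84 and 9. Its percentile was 55.2, 98.4 and 88.8 under siJunb and 94.6, 97.7 and 64.0 under siH1f0, with the lower values in the first naming series of each group. By regions near gene ends, no AP-1 gene differed by 2 or more lists. Inside Bach2, a region (chr4:32408158-32411503) was in all 3 siH1f0 and no siJunb lists, with maxima of 13, 26 and 8. All 6 lists held some region over the body of Bach2.

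H1f0 had 6 and 8 in siJunb replicates 2 and 3 and 20 and 14 in siH1f0 replicates 1 and 2, so both groups lacked it in their list of the first naming series. Linker histone genes were bound at 75.0%, 87.5% and 87.5% under siJunb and 87.5%, 87.5% and 75.0% under siH1f0, for 8 genes.

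Fibroblast and matrix genes were bound in 50%, 71.4% and 60.7% under siJunb and 78.6%, 78.6% and 64.3% under siH1f0, for 28 genes, a mean difference of -13.1 percentage points (exact permutation p = 0.2, adjusted p = 1 over 18 gene lists). Over all protein-coding genes the difference was -4.07 points. Col3a1, a fibrillar collagen gene, was in 2 siH1f0 lists (13 and 21), and so were Col5a1 (10 and 16) and Fap, a fibroblast protease gene (12 and 7). Postn, the matricellular gene of activated fibroblasts, had 9 in siJunb replicate 3 and 9, 14 and 8 under siH1f0. Lox, the collagen cross-linking enzyme gene, had 11 in siJunb replicate 2 and 24, 32 and 8. Thy1, a fibroblast surface marker gene, was bound in all 6 lists (12, 25 and 25 against 53, 83 and 32), as was Col1a1 (8, 13 and 8 against 31, 32 and 9).

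Mesenchymal transcription factor genes stood at 18.8%, 56.3% and 56.3% under siJunb and 68.8%, 75.0% and 37.5% under siH1f0, for 16 genes. Twist1 was in 2 siH1f0 lists, Prrx1 in 3 siH1f0 and 1 siJunb list, and Tbx18 as given above. Of 18 TGF-beta genes, the receptor genes Tgfbr1 (8 in siJunb replicate 2 against 18, 30 and 15) and Tgfbr2 (2 siH1f0 lists) were in at least 2 more siH1f0 lists, and 9 were bound in all 6.

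Shares for markers of other cell types are set beside those of all protein-coding genes, which were 21.2%, 46.9% and 35.7% under siJunb and 40.4%, 47.1% and 28.6% under siH1f0. Neuronal genes had 8.33%, 41.7% and 16.7% under siJunb and 8.33%, 33.3% and 8.33% under siH1f0. Blood and immune genes had 40% in siJunb replicate 2, 0% in the other siJunb lists and 20%, 20% and 0% under siH1f0. Hepatocyte genes had at most 11.1% in any list. Endothelial genes had 0% in every siH1f0 list and 22.2% in siJunb replicates 2 and 3, where Flt1, a VEGF receptor gene, had 6 and 8. These shares count only regions near gene ends. Inside the endothelial gene Cdh5, a region (chr8:104126663-104128164) was in all 3 siH1f0 and no siJunb lists, with maxima of 15, 25 and 13. Skeletal muscle genes stood at 14.3% to 21.4%. The neuronal gene Slc17a7, a glutamate transporter gene, had 11 and 6 in siJunb replicates 2 and 3 and no region under siH1f0. Housekeeping genes ranged from 46.7% in siJunb replicate 1 to 93.3% in siJunb replicate 2 and siH1f0 replicate 2.

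Over the 18 gene lists, 11 had a lower mean share under siJunb, 3 a higher and 4 the same. In 0 of them did the groups stand apart, and 0 passed at an unadjusted p under 0.05, which 3 against 3 lists cannot reach by the exact permutation test. Without siJunb replicate 1, 6 of the 18 were lower under siJunb. With lists of equal covered length, 4 were lower.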

How the data were processed

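The deposited files are peak lists, 1 per sample, whose values are signal: coverage in whole numbers, as a sum over the peak and as its highest value, made by the authors. Per the submitters' processing notes, Bowtie2 and SEACR were used with mm10; versions, depth scaling, the use of IgG and duplicate handling are not given in the sources used here. The file names carry SEACR's relaxed setting. Each label states 30 M reads, and list length and the spread between samples served as the measure of precision. The IgG and ground-state samples were not analysed here.

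Overlapping peaks of the 6 lists (at least 1 bp, chromosomes 1 to 19 and X) were merged, and a list held a region when a peak of it lay there. Maxima were used only as ranks within a list, except in the log2 alternative, and are printed as unscaled values. Genes came from RefSeq (GRCm38.p6), bound when a region lay within 5 kb of either end. Exons and introns were not told apart. List values were compared with exact permutation tests, two-sided. Regions in all 6 lists were compared with limma 3.58.1 (R 4.3.3) on normal scores of ranks, with Benjamini-Hochberg adjustment at 0.05. The code was tested on simulated data. Python 3.11.15, numpy 2.4.6, pandas 2.3.3 and scipy 1.17.1 were used.

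The members, gene lists and tests were chosen with earlier results of these data known. Named were the 10 highest-ranked regions of each group-only set (by the lowest percentile over the lists holding them), the 10 smallest limma p in each direction, genes of the lists that differed by at least 2 lists, and 16 genes named whatever their values (Junb, H1f0, Mef2c, Gata4, Tbx5, Myh6, Actc1, Ttn, Tnnt2, Ryr2, Nppa, Col1a1, Postn, Thy1, Fos and Jun). Other genes were named as members bound in all 6 lists, for their promoter sequence, or for a group-only region inside the gene. The values of 1 listed gene are not reported here, though it stays in the counts of its list.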

Additional observations from a re-analysis of the deposited data

Results flagged for a closer look

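Some values moved one way in the first naming series (1 list per group) and the other way in the second (2 lists per group). The difference between the series was not tested. The share of regions holding a promoter window was higher under siJunb by 1.18 percentage points in the first series, and the difference was -7.66 in the second, a gap between the series of -8.83.

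The share of peaks on chromosome 10 was -0.0881 points under siJunb minus siH1f0 in the first series and 3.34 in the second, a gap of 3.43. Smaller gaps of the same kind were found for chromosome 4 (-1.45 points), chromosome 9 (0.62), chromosome 12 (-0.303) and chromosome 19 (-0.986).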

How the results depend on the processing

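The counts of group-only regions and genes moved with most choices. Those of siH1f0-only regions and genes were lowest at equal covered length, and those of siJunb-only regions were highest within the first naming series, and the cause was not tested. For regions in siH1f0 lists only and in siJunb lists only, the counts were 663 and 83 at equal list length (689 and 92 by maximum signal, chosen after seeing the data), 496 and 39 in the stronger 50% of each list, 708 and 37 where peaks had to cover 50% of a region, 35 and 71 at equal covered length (59 and 112 by maximum signal, also chosen afterwards), 3302 and 235 in 1 kb windows, and 4578 and 2818 by the rule of at least 2 of 3 lists. Within the first naming series they were 10955 and 4732, within the second 4421 and 2656, and without chromosomes 2, 5 and 10 (chosen afterwards) 905 and 51. Leaving out 1 list gave 1279 to 3871 and 124 to 2437. The group with a list left out then needed only its 2 remaining lists. The rule was thus looser than with all lists, for regions as for genes. Besides siJunb replicate 1, counts moved most without siH1f0 replicate 3 (3871 siH1f0-only), siJunb replicate 2 (2411 siH1f0-only and 234 siJunb-only), siH1f0 replicate 1 (1769 siH1f0-only), siJunb replicate 3 (351 siJunb-only) and siH1f0 replicate 2 (178 siJunb-only).

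For genes the counts were 178 and 73 at equal list length, 100 and 21 in the stronger 50%, 14 and 82 at equal covered length (7 and 94 by maximum signal), 205 and 18 within 1 kb of an end, 201 and 98 within 25 kb, 2702 and 1133 and then 854 and 590 within the series, and 184 and 24 without the 3 chromosomes. Leaving out 1 list gave 222 to 729 and 74 to 495. For single named genes, 287 of the values under alternatives other than leaving out a list moved and 208 did not, and for named regions 72 moved and 88 did not. The number of gene lists lower under siJunb was 4 at equal covered length and 6 to 15 with 1 list left out.

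Differences per list turned sign in places. Regions per list went to -320.333 at equal list length and -6223 within the first naming series, and to -6486 to 10312 with 1 list left out. Covered length ranged from -23.1 to 12.1 Mb with 1 list left out, and the share on H1.0 from -0.448 to 2.29 points. The share near a gene end was 1.08 points within the first series and -3.37 to -0.363 with 1 list left out. The share on H3K9me3 stayed higher under siJunb, from 1.67 to 2.95 points with 1 list left out, and at equal list length the groups did not overlap (1.56 points, exact permutation p = 0.1). On median-centred log2 maxima limma called 12 shared regions higher under siH1f0 and 4 under siJunb.

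Deviations of same-numbered lists from their group means correlated at -0.142, 0.00308 and -0.136 over the shared regions. Differently numbered lists of the 2 groups gave -0.0421 to 0.14. With 3 lists per group, such values cannot decide whether the replicate numbers pair the lists. With the replicate block the exact p was 1 for regions per list, 0.75 for covered length and 0.25 for the share on H3K9me3, where 0.25 is the smallest that 3 pairs allow, and limma called 0 regions in each direction.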
